A study of Mus musculus with 8 samples.

Results

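TFIID is the complex of TATA-binding protein (TBP) and its associated factors (TAFs), and the 10 genes described here are subunits of it, paralogs of subunits with germ cell variants among them, and relatives of TBP: Taf1, Taf5, Taf7, Taf9, Tbp, Taf4b, Taf7l, Taf9b, Tbpl1 and Tbpl2. They are 10 of the 23343 gene symbols measured, taken by symbol, with the counts of all transcript entries of a symbol added up. They were selected on the difference between mutant and control in cKit+ cells of these data, in which TAF genes were lower, so their values in that comparison are given as a description with no test. Tbpl2 had 0 counts in every library, and the other 9 members passed the filter on low counts.

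The data are RNA-seq of cells taken as spermatogonia from testes of C57BL/6 mice at postnatal day 7, with 2 libraries in each of 4 groups. Markers of other testis cells were also present in these libraries, as given below. Cells positive for Thy1, which marks undifferentiated spermatogonia, or for cKit, which marks differentiating ones, came from mice labelled PRC1ctrl (control) or PRC1dKO (dKO). PRC1 is Polycomb repressive complex 1, which places ubiquitin on histone H2A and keeps developmental genes silent. The labels give neither the deleted genes, nor the alleles of the controls, nor a Cre driver, nor whether replicates are separate animals, so that p-values here measure only the spread between these libraries. The comparisons ask how loss of PRC1 and the difference between Thy1+ and cKit+ cells go with expression of the basal transcription machinery.

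TFIID binds core promoters and places RNA polymerase II at the start of genes. TBP bends the DNA at the promoter, TAF1 is the scaffold and largest subunit, and TAF5, TAF7 and TAF9 are further subunits of the complex. Some subunits have paralogs: TAF4B is a paralog of TAF4 needed to keep the male germ line, TAF7L is an X-linked paralog of TAF7 needed for spermatogenesis, and TAF9B is a close paralog of TAF9. TBPL1, also called TRF2, is a relative of TBP needed in spermatids, and TBPL2, also called TRF3, acts in oocytes.

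Promoter windows of 4 members are printed to show what lies upstream of the paralogs with the 2 largest differences in cKit+ cells, Taf7l and Taf9b, and of TBP and its relative, whose differences were among the smaller ones. Each window runs 5′ to 3′ on the strand of the gene from 250 bases before to 50 bases after the RefSeq start (GRCm38.p6), and capitals mark matches, on either strand, to any of 7 motifs, the E-box, E2F, TATA box, GC box, CCAAT box, ETS and CRE motifs spelled out after the windows. The windows are chrX:134476441-134476740 (minus strand) for Taf7l, chrX:106221109-106221408 (minus) for the Taf9b transcript that held 98.8% of its counts, chr17:15499638-15499937 (plus) for Tbp and chr10:22731398-22731697 (minus) for Tbpl1.
Taf7l: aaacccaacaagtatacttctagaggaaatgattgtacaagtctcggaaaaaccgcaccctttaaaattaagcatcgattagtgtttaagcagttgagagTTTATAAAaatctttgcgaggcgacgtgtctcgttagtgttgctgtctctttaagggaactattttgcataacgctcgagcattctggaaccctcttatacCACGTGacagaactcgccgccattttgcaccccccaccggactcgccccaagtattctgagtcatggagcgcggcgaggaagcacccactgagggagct
Taf9b: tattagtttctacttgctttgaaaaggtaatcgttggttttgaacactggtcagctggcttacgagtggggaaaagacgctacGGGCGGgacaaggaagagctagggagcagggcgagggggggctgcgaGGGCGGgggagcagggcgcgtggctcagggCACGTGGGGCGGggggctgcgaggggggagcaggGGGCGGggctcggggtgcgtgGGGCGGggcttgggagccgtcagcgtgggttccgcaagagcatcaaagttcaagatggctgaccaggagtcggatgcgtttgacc
Tbp: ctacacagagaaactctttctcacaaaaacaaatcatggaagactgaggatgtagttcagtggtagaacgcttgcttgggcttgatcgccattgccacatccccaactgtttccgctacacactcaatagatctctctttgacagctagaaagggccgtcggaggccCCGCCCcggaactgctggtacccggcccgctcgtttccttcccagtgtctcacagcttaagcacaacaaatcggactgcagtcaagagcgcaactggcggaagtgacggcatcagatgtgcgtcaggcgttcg
Tbpl1: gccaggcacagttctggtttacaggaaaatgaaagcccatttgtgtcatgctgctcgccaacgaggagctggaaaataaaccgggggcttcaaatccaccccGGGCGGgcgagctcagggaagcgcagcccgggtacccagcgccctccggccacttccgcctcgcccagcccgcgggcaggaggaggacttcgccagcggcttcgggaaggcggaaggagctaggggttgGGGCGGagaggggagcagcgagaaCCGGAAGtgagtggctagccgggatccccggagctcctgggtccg

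The E-box, written CACGTG, was matched in the Taf7l window, 49 bases before the start, and in the Taf9b window, 90 bases before it, where a GC box, written GGGCGG, follows directly without overlap. No other window of the members held it, against 7.15% of the 32851 windows in the table. Taf7l and Taf9b were picked by their differences in the comparison that chose the members. Whether the motif goes with those differences was not tested. The Taf7l window also held a pair of overlapping TATA box matches, with the letters TATAAA, at 150 and 148 bases before the start (13.6% of all windows hold one), and no GC box. The Taf9b window held 5 GC boxes, the Tbpl1 window 2 and the Tbp window 1 (35.7% of all windows hold at least 1), and Tbpl1 held a match to the ETS letters CCGGAAG 5 bases after the start (8.86%). CCAAT, found in 37.4% of all windows, was not matched in these 4, and neither the E2F letters TTCCCGC, held by 4.60% of all windows, nor the CRE letters TGACGTCA, held by 1.79%, were matched in a window of any member. GC content was 47.0% in Taf7l, 53.3% in Tbp, 64.0% in Taf9b and 66.0% in Tbpl1, against a median of 52.7% over all windows. Windows were examined for 8 of the 10 members, and those of Taf4b and Taf7 are not reported here. A match is a string of letters, not a bound site.

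Library totals ran from 6763908 to 10976869 counts, and replicate libraries of every group differed by more than sampling noise. Kit, the sorted antigen of the cKit+ cells, was at 281 to 317 CPM (counts relative to the library total, scaled between libraries by the TMM method) in Thy1+ libraries and at 938 to 1059 in cKit+ libraries. Thy1 was at 12.8 to 26.0 CPM in Thy1+ libraries and at 0 to 1.28 in cKit+ libraries. Rnf2 and Ring1, which encode the catalytic subunits of PRC1, were not lower in the dKO libraries: Rnf2 was at 103 to 146 CPM in the controls and 126 to 141 in the dKO, and Ring1 at 2.70 to 5.23 and 2.59 to 12.01. A deletion of part of a gene can leave its total count as it was, so these values do not check the genotype. The libraries' record numbers in the labels put Thy1+ and cKit+ cells in separate series, so that population and record series cannot be told apart, and 1 cKit+ control library (replicate 1) has a number apart from the other cKit+ libraries.

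Among the germ cell paralogs, Taf7l stood out in cKit+ cells of dKO mice. It was at 201 and 238 CPM in the Thy1+ control libraries, 201 and 202 in Thy1+ dKO, 202 and 146 in cKit+ control, and 40.7 and 54.7 in cKit+ dKO. The 2 cKit+ dKO libraries were thus far below all 6 others, which overlapped. The log2 fold change of dKO against control in cKit+ cells was -1.87 ± 0.17 (SE), 3.65-fold lower. Because these are bulk samples, fewer cells of a type and less RNA per cell cannot be told apart.

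Taf9b was at 217 and 253 CPM in controls and 199 and 165 in dKO among Thy1+ cells, and 217 and 179.7 in controls and 88.1 and 80.8 in dKO among cKit+ cells. The cKit+ dKO libraries again lay below all others, 2.35-fold under the cKit+ controls (log2 -1.24 ± 0.14). Taf4b was at 128 and 135 CPM in controls and 111 and 109 in dKO among Thy1+ cells, and 114 and 102 in controls and 51.6 and 64.5 in dKO among cKit+ cells. Its cKit+ dKO libraries were 1.86-fold under the controls (log2 -0.90 ± 0.14).

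**Figure D1:**
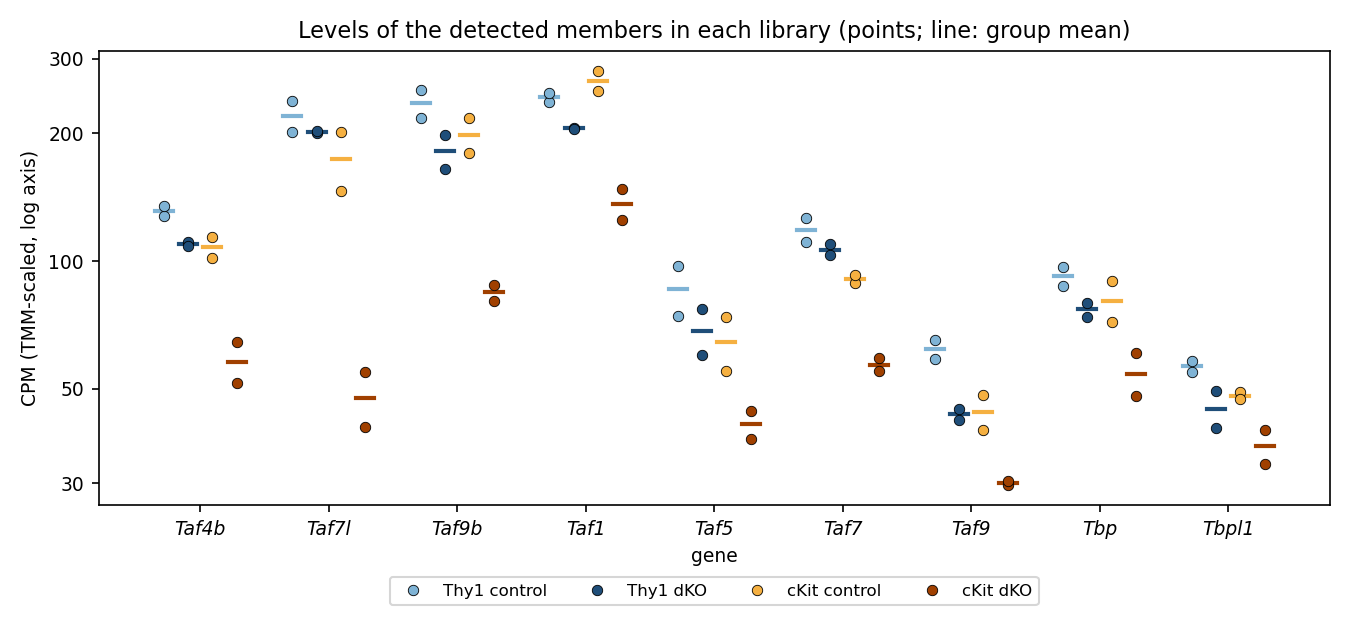
Levels of the 9 detected members (x axis) in CPM on a log axis, with 1 point per library and a line at the mean of each of the 4 groups. For each gene, both cKit+ dKO libraries (dark orange) lie below both cKit+ control libraries, and Taf7l shows the widest gap (40.7 and 54.7 against 202 and 146).

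Of the general subunits, Taf1 was at 237 and 249 CPM in controls and 206 and 205 in dKO among Thy1+ cells, and 279.9 and 252 in controls and 148 and 125 in dKO among cKit+ cells, a log2 difference of -0.96 ± 0.12 in cKit+ cells. Both cKit+ dKO libraries lay below the 6 others. Taf7 was at 111 and 126 CPM in controls and 103 and 109.6 in dKO among Thy1+ cells, and 88.9 and 92.8 in controls and 59.1 and 55.1 in dKO among cKit+ cells (log2 -0.67 ± 0.13). Its dKO value in cKit+ cells was therefore lower by less than that of its germ cell paralog Taf7l. Taf5 was at 74.2 and 97.5 CPM in controls and 77.1 and 60.03 in dKO among Thy1+ cells, and 73.9 and 55.3 in controls and 38.1 and 44.4 in dKO among cKit+ cells (log2 -0.65 ± 0.19). The replicates of Taf5 were spread more widely than those of Taf7.

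Taf9 was at 58.8 and 65.1 CPM in controls and 44.8 and 42.3 in dKO among Thy1+ cells, and 48.5 and 39.9 in controls and 29.8 and 30.3 in dKO among cKit+ cells (log2 -0.56 ± 0.16). Of its 2 transcript entries, the one with 78.0% of the counts also carries the transcript of Ak6, a kinase gene that shares 1564 exon bases with it, so Taf9 counts may include Ak6 reads. Tbp was at 96.9 and 87.5 CPM in controls and 79.8 and 74.1 in dKO among Thy1+ cells, and 89.6 and 71.8 in controls and 48.0 and 60.7 in dKO among cKit+ cells (log2 -0.57 ± 0.15). Tbp shares 2582 exon bases with Pdcd2 on the opposite strand, and without strand their reads cannot be told apart. In cKit+ dKO cells Pdcd2 itself fell, by 0.75 ± 0.25 in log2 units (edgeR adjusted p = 0.036).

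Tbpl1 differed least: 55.0 and 58.2 CPM in controls and 49.3 and 40.6 in dKO among Thy1+ cells, and 49.1 and 47.3 in controls and 40.0 and 33.3 in dKO among cKit+ cells (log2 -0.40 ± 0.16). Tbpl2 had 0 counts in all 8 libraries, which allows at most 0.186 CPM in controls and 0.185 in dKO among Thy1+ cells, and 0.155 in controls and 0.238 in dKO among cKit+ cells (3 counts over a group, counting error only).

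In cKit+ cells the 9 detected members were thus each lower in both dKO libraries than in both controls, where 30% of all 14907 genes tested were. Their median log2 difference was -0.67, and that of all genes 0.03. The contrast chose the members, so nothing is read from these counts. Setting the libraries level by 14 germ cell genes instead of by TMM moved the median of all genes to 1.64, and 8 of the 9 members then had a positive value (Taf4b 0.70, Taf9b 0.39, Taf1 0.67, Taf5 0.97, Taf7 0.94, Taf9 1.06, Tbp 1.03, Tbpl1 1.23), with Taf7l at -0.26. The sign of these values thus depends on the scaling.

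Those germ cell genes moved with the members. Their summed level was 2601 and 2805 CPM in controls and 2313 and 2006 in dKO among Thy1+ cells, and 2244 and 1802 in controls and 545 and 759 in dKO among cKit+ cells, and 12 of the 14 fell in cKit+ dKO cells (edgeR adjusted p under 0.05; 15.4% of all genes, 2294, fell and 13.2%, 1965, rose; the split was 3007 to 1278 with library totals, 3898 to 430 with limma on log2(RPKM + 0.1) and 69 to 12275 with germ cell scaling). Of the 16 germ cell markers, some of which are in that set, 12 fell. They summed to 2603 and 2861, 2461 and 2151, 2948 and 2472, and 1559 and 1681 CPM in the same order of groups. The stromal sums below exceeded these in every library, and the Leydig sums did so in every cKit+ library. Lists differ in the number and length of their genes, so the sums are not shares of cells. Sums of the 12 Sertoli markers were 406 and 411, 530 and 566, 886 and 949, and 1339 and 1340 CPM in the same order of groups, of which 5 rose in cKit+ dKO by the same test. The 11 peritubular and stromal markers summed to 13888 and 10298.5, 11604 and 12041, 3209 and 3115, and 6211 and 4973 CPM, of which 7 rose. The 7 endothelial markers summed to 313 and 310.5, 447 and 463, 199 and 194, and 394 and 415 CPM, of which 4 rose. The 7 Leydig markers summed to 2549 and 3169, 3750.0 and 4191, 11042 and 13257, and 15407 and 18018 CPM, of which 5 rose and 1 fell, and 2 of the 5 mast cell markers tested rose. No list's genes were at 0 in every library, and Fcer1a, a mast cell marker, was at 0 in Thy1+ dKO and in both cKit+ groups. The part of these cells in the members' values was not tested.

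In mm10 coordinates, as deposited, Taf7l lies at 134460116 to 134476490 on chromosome X, where Taf9b (106206874 to 106221158) and Taf1 (101532735 to 101601789) lie too. Tbp lies on chromosome 17 (15499888 to 15517427), Tbpl1 on chromosome 10 (22703877 to 22731447), Taf5 on chromosome 19 (47067748 to 47083479), Taf9 on chromosome 13 (100651343 to 100666413) and Tbpl2 on chromosome 2 (24071721 to 24096595).

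The ratio of a paralog to its partner within a library does not depend on scaling between libraries, and was formed from RPKM (reads relative to transcript length and library total). Taf7l over Taf7 was 3.10 and 3.22 in controls and 3.31 and 3.15 in dKO among Thy1+ cells, and 3.87 and 2.69 in controls and 1.17 and 1.70 in dKO among cKit+ cells. Taf4b over Taf4a, the symbol under which TAF4 is measured here, was 2.65 and 3.08, 2.50 and 2.32, 1.67 and 2.399, and 1.05 and 1.07 in the same order. In both pairs the 2 cKit+ dKO libraries were the lowest of the 8, close to even levels of variant and partner for Taf4b and Taf4a. Taf9b over Taf9 was 1.70 and 1.78, 2.05 and 1.81, 2.05 and 2.05, and 1.35 and 1.21. Tbpl1 over Tbp was 0.36 and 0.43, 0.40 and 0.35, 0.35 and 0.42, and 0.54 and 0.35, with all groups overlapping. A ratio shows unequal levels, not which gene differed. The cKit+ libraries are those of the comparison that chose the members, so the ratios are a description with no test. The part of the mix of cells in them was not tested.

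**Figure D2:**
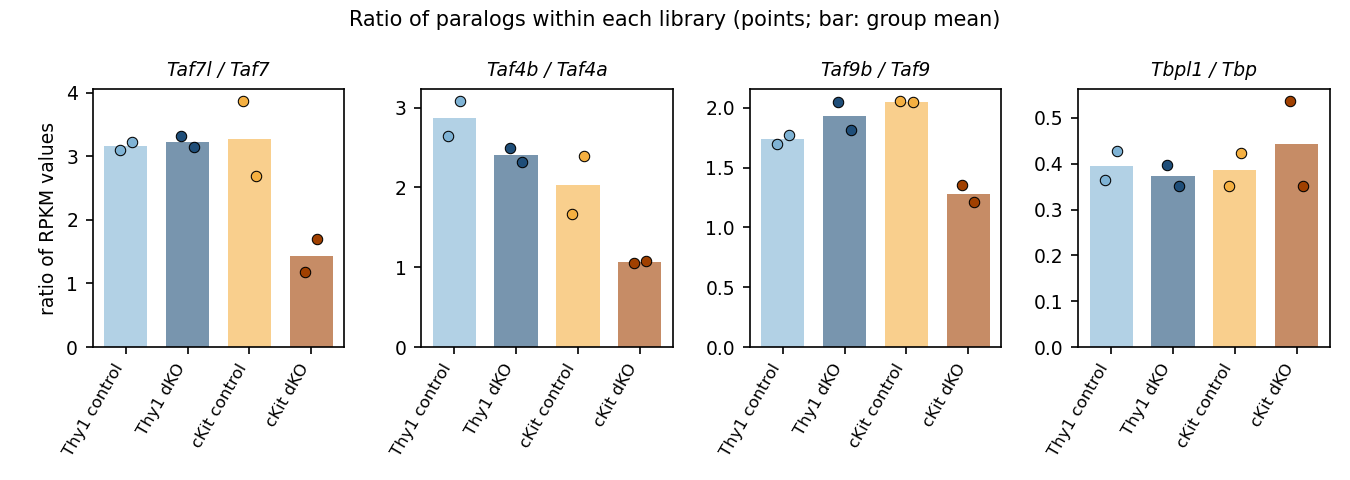
Ratio of the RPKM values of a variant to its partner in each library (points) and group mean (bars), for 4 pairs. The ratios of Taf7l to Taf7, Taf4b to Taf4a and Taf9b to Taf9 are lowest in both cKit+ dKO libraries, and that of Tbpl1 to Tbp overlaps among the groups.

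Ordered by RPKM, a level per length, Taf7l was the highest member in Thy1+ control (mean 32.3), Thy1+ dKO (29.3) and cKit+ control (30.4, where its libraries overlapped those of Taf9b at 26.6). In cKit+ dKO it was the fourth, at 6.56, behind Taf9b (8.87), Tbp (7.85) and Taf9 (6.94), with libraries of these neighbours overlapping. Taf4b was the eighth in Thy1+ control (7.28) and had the lowest mean of the detected members in cKit+ dKO (2.995), with libraries overlapping those of Taf5 in both groups and, in cKit+ dKO, of Tbpl1 (3.37), and Tbpl1 was the lowest detected member in the other 3 groups.

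In Thy1+ cells, whose libraries did not enter the comparison that chose the members, no member passed the test between dKO and control. All 9 values were negative, as were 46.2% of those of all genes (median log2 -0.26, against 0.03 for all genes). In 7 of 9 both dKO libraries were below both controls, as in 22.8% of all genes. The 14 germ cell genes used for scaling were all negative too (median -0.32), 11 of them with both dKO libraries below both controls. With germ cell scaling 1 of the 9 members stayed negative, and the members' median was 0.14. In the quasi-likelihood test of edgeR, with p-values adjusted over all genes, 0 of 9 members were called, with 0.624% of all genes called in either direction. At an unadjusted p under 0.05 there were 2, Taf9 and Taf9b, both lower (6.25% of all genes were lower at that threshold), and DESeq2 and limma called 0. Taf9 had log2 -0.51 ± 0.15 (edgeR adjusted p = 0.14) and Taf9b -0.37 ± 0.13 (edgeR adjusted p = 0.22). Taf7l was at -0.13 ± 0.16 (edgeR adjusted p = 0.78, 95% interval -0.46 to 0.21). The effects in Thy1+ and cKit+ cells were not tested against each other for the members. A fit of only the 4 Thy1+ libraries called both Taf9 (edgeR adjusted p = 0.024) and Taf9b (0.047), the setting under which these calls appear. That fit called 870 of 14374 genes, 438 of them lower, where the main fit called 93.

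Between the control populations, cKit+ against Thy1+, Taf7 fell by 0.39 ± 0.12 in log2 units (edgeR adjusted p = 0.038) and Taf9 by 0.48 ± 0.15 (adjusted p = 0.037). The other 7 detected members did not pass, among them Taf4b at -0.28 ± 0.13 (adjusted p = 0.15), Taf7l at -0.33 ± 0.16 (0.16) and Taf1 at 0.13 ± 0.12 (0.49). The cKit+ control libraries here are also those of the comparison that chose the members. Of all genes, 10.3% fell and 9.46% rose, and both cKit+ libraries lay below both Thy1+ libraries for 5 of 9 members and 29.8% of all genes. Neither call was made by limma, with germ cell scaling or with only the largest transcript entry per symbol, and DESeq2 made that of Taf7 alone. Without Thy1+ control replicate 1 the adjusted p was 0.061 for Taf7 and 0.088 for Taf9, without Thy1+ control replicate 2 it was 0.30 and 0.24, and without cKit+ control replicate 2 it was 0.085 and 0.23. Without Thy1+ dKO replicate 1 it was 0.075 and 0.068, and without Thy1+ dKO replicate 2 0.077 and 0.069. Without cKit+ control replicate 1 Taf7 was at 0.14, and Taf7l passed with -0.58 (edgeR adjusted p = 0.034). The split of all genes was 1529 lower to 1410 higher, and 742 to 2480 with germ cell scaling and 782 to 2384 with limma on log2(RPKM + 0.1).

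Between the dKO populations, cKit+ against Thy1+, the values share the cKit+ dKO libraries with the comparison that chose the members and are listed with no test: Taf7l -2.08, Taf9b -1.11, Taf4b -0.92, Taf7 -0.90, Taf5 -0.74, Taf1 -0.59, Taf9 -0.54, Tbp -0.50 and Tbpl1 -0.30 on the log2 scale. All 9 had both cKit+ libraries below both Thy1+ libraries, as had 38.2% of all genes, whose median was -0.08 with 54.8% of values negative.

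**Figure D3:**
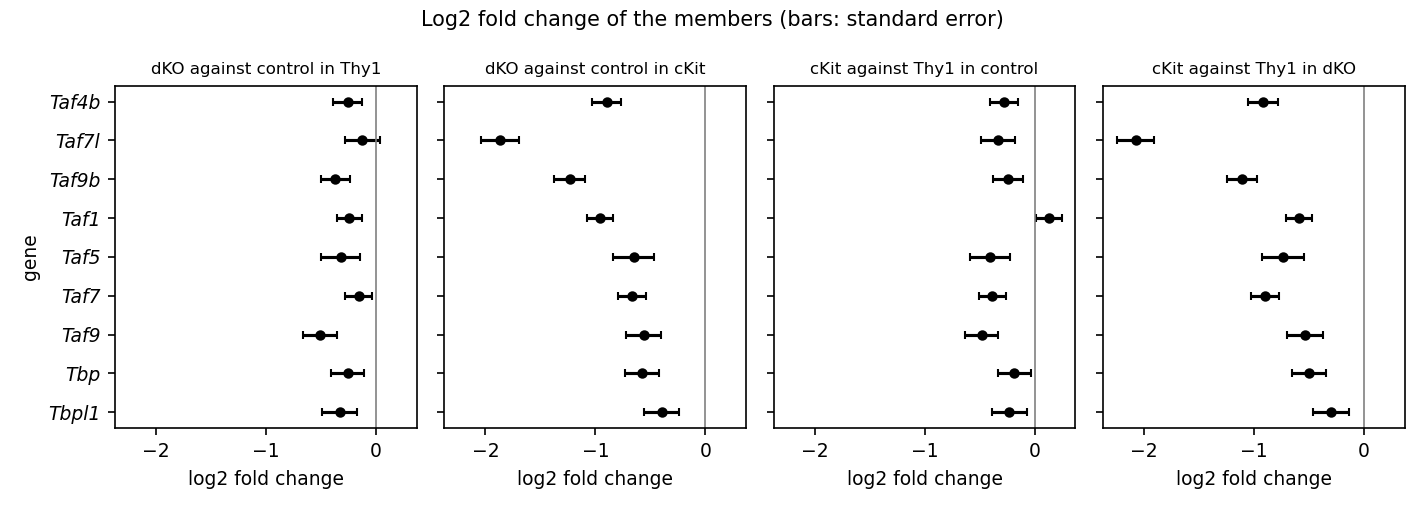
Log2 fold change with its standard error (bars) of the 9 detected members in 4 comparisons, with a line at 0. Values in cKit+ dKO against control reach -1.87 (Taf7l), and those in Thy1+ dKO against control lie between -0.51 and -0.13.

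Of the 10 other TFIID subunits tested, 4 fell and 0 rose in cKit+ dKO cells (15.4% of all genes fell), with a median log2 of -0.47. These are TAF genes too, and the members were chosen because TAF genes were lower in this comparison. Their counts and p-values here are therefore not independent of that choice. Taf2, which contacts the initiator element, fell by 1.19 ± 0.13 (edgeR adjusted p = 2.2e-05), from 329 and 272 to 116 and 147 CPM. Taf6, a histone-fold partner of TAF9, fell by 0.70 ± 0.14 (adjusted p = 0.0020), Taf12 by 0.83 ± 0.26 (0.028) and Taf10 by 0.76 ± 0.22 (0.016). The call of Taf10 was lost without cKit+ control replicate 1 (adjusted p = 0.14) and without cKit+ dKO replicate 1 (0.072). That of Taf12 was lost without cKit+ control replicate 1 (0.11), cKit+ control replicate 2 (0.082) and cKit+ dKO replicate 1 (0.12), with DESeq2 and in a fit of the 4 cKit+ libraries. The remaining subunits did not pass: Taf8 -0.60, Taf3 -0.35 (adjusted p = 0.051), Taf11 -0.22, Taf15 -0.19, Taf13 -0.12 and Taf4a -0.03. Across settings other than germ cell scaling, 2 to 8 of the 10 fell: Taf8 and Taf3 passed with library totals and limma, Taf11 and Taf15 with limma, and Taf13 without cKit+ dKO replicate 2 (-0.70, edgeR adjusted p = 0.034), though it was at 0.35 without cKit+ dKO replicate 1. Taf4a, the partner of the germ cell variant Taf4b, thus had a value near 0. With germ cell scaling, 9 of the 10 rose and none fell.

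In Thy1+ dKO cells 0 of these 10 passed by edgeR, DESeq2 or limma, and none was below an unadjusted p of 0.05, with a median of -0.01. Their values were Taf12 0.48, Taf13 0.06, Taf10 0.03, Taf3 0.01, Taf8 -0.01, Taf4a -0.01, Taf11 -0.12, Taf15 -0.12, Taf2 -0.24 and Taf6 -0.26. Between the control populations Taf10 rose by 0.71 ± 0.21 (edgeR adjusted p = 0.029) and Taf3, which binds methylated histone H3, rose by 0.49 ± 0.13 (0.011), and the other 8 did not pass (Taf12 0.51, Taf4a 0.28, Taf11 0.20, Taf15 0.18, Taf13 0.05, Taf8 -0.01, Taf2 -0.02 and Taf6 -0.10). With limma on log2(RPKM + 0.1) and log2(RPKM + 1), Taf12 (adjusted p = 0.038 and 0.032) and Taf15 (0.040 and 0.036) also rose. The call of Taf10 was lost with the largest entry per symbol (edgeR adjusted p = 0.051). Taf10 was at an adjusted p of 0.082 and 0.20 without Thy1+ control replicate 1 and 2 and of 0.19 without cKit+ control replicate 1, and Taf3 at 0.12 without Thy1+ control replicate 2 and 0.05023 without cKit+ control replicate 2.

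For the rest of the machinery in cKit+ dKO cells, each count stands beside the 15.4% of all genes that fell and the 13.2% that rose, and lists were not tested against each other. Of 17 other general factors of RNA polymerase II tested, 8 fell and 0 rose: Gtf2h4 (log2 -1.48 ± 0.45), Gtf2e1 (-1.04 ± 0.19), Ercc3 (-0.98 ± 0.16) and Ccnh (-0.91 ± 0.19), of TFIIH and TFIIE, changed most. Of 13 subunits of RNA polymerase II, 4 fell, namely Polr2b (-1.02 ± 0.12), Polr2e (-0.95 ± 0.17), Polr2h (-0.79 ± 0.19) and Polr2a (-0.53 ± 0.09), the catalytic subunit. Of 33 Mediator subunits, 7 fell, led by Med12l (-1.17 ± 0.22), Med23 (-1.12 ± 0.17), Med26 (-1.06 ± 0.21) and Med17 (-0.89 ± 0.17), and 2 rose, Med14 (0.55 ± 0.13) and Med13 (0.42 ± 0.10). Of 17 subunits of SAGA and ATAC, which share some TAFs with TFIID, 1 fell, Taf5l (-0.55 ± 0.14), with a list median of 0.14. These counts depended on the setting. In settings other than germ cell scaling, up to 7 of these 17 fell and up to 1 rose. For the general factors up to 10 fell and 0 rose, for RNA polymerase II up to 7 and 1, and for Mediator up to 16 and 4. Taf1c, of the RNA polymerase I factor SL1, fell by 1.20 ± 0.29, 1 of 7, and Btaf1, which removes TBP from DNA, by 0.58 ± 0.12, 1 of 3. Single libraries decided some calls: without cKit+ control replicate 1 the adjusted p was 0.059 for Taf5l, 0.11 for Gtf2h4 and 0.052 for Med14, without cKit+ dKO replicate 1 it was 0.14 for Taf5l, 0.095 for Gtf2h4 and 0.054 for Taf1c, and without cKit+ control replicate 2 it was 0.057 for Polr2h. The fall of each gene named here reverses in sign with germ cell scaling, and both rises are lost with limma on log2(RPKM + 0.1), where Med14 was at 0.16 (adjusted p = 0.41) and Med13 at 0.07 (adjusted p = 0.66). In Thy1+ dKO cells 3, 2, 2, 1, 4 and 6 genes were at an unadjusted edgeR p under 0.05 for SAGA and ATAC, SL1 and TFIIIB, general factors, TBP regulators, RNA polymerase II and Mediator, or 18 of 90 (13.8% of all genes). Of the Mediator genes 3 were higher and 3 lower, and those of the other lists were all lower. Of all genes 931 (6.25%) were lower and 1128 higher at that threshold. After adjustment the main edgeR fit called none of the genes of these 6 lists there, and DESeq2 called 1 Mediator gene. Over the alternative settings, up to 2 general factors, 2 RNA polymerase II subunits and 1 SL1 and TFIIIB subunit were called lower and 0 higher. Up to 1 Mediator gene was called in each direction. Between the control populations 4 of their 90 genes passed, 2 in each direction (9.46% of all genes rose and 10.3% fell): Kat2b (0.71 ± 0.16) and Atxn7 (0.48 ± 0.13) rose, and Med14 (-0.53 ± 0.13) and Med20 (-0.47 ± 0.16, lost in 14 of 17 alternative settings) fell. Without Thy1+ control replicate 1 Kat2b was at an adjusted p of 0.052 and Atxn7 at 0.13, without cKit+ control replicate 2 Atxn7 was at 0.081, and without cKit+ control replicate 1 Med14 was at 0.05997. Med14 was also lost with limma (0.17 with both pseudocounts) and germ cell scaling (0.63), and Kat2b with the largest entry per symbol (0.053).

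**Figure D4:**
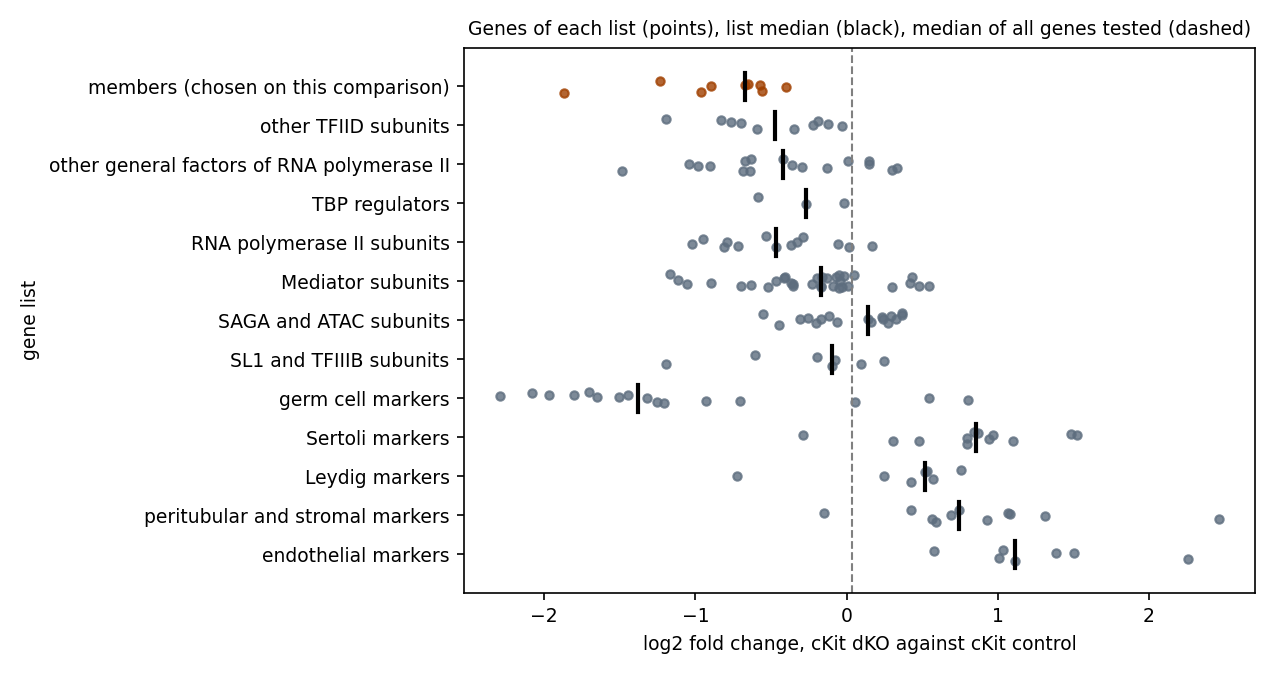
Log2 fold change of cKit+ dKO against cKit+ control for each gene (points) of the members, related complexes and cell type markers, with list medians (black) and the median of all genes tested (dashed, 0.03). Members (median -0.67) and germ cell markers (-1.38) lie to the left, and endothelial (1.11) and Sertoli (0.86) markers to the right.

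The genes whose levels followed Taf7l most closely over the 8 libraries were Hells (Pearson r = 0.997), Wee1 (0.997), Usp26 (0.996), Mael (0.995) and Ddx4 (0.994). For Taf4b they included Cirh1a (0.996), Tdrd1 (0.994) and Mael (0.994), and for Taf9b they were Klf8 (0.999), Spdl1 (0.996), Sae1 (0.996), Sgol2 (0.995) and Rnf17 (0.994). Mael and Ddx4, an RNA helicase of the germ line, are among the germ cell genes above. Among members, r ran from 0.77 (Taf7l with Tbpl1) to 0.99 (Taf4b with Taf7l). These are correlations of log2 CPM over the same 8 libraries, with groups, depth and scaling shared, taken from 10235 genes. The 8 include the cKit+ libraries of the comparison that chose the members. Nothing is therefore read from the correlations, among members or with other genes.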

How the data were processed

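RNA was amplified with the NuGEN Ovation v2 kit and made into Nextera XT libraries, per the labels' protocols. STAR 2.4.2a and the mm10 build were used, per the submitters' processing notes; the counting tool, its use of strand and filters are not given in the sources used here. The authors deposited, per transcript entry, raw counts and RPKM values, whose library total is not given in the sources used here. Here the 26099 entries were summed to 23343 symbols, and coordinates are those deposited. The members and the gene lists were chosen with earlier results of these data known.

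Counts were tested with edgeR 4.0.16 (R 4.3.3; filterByExpr, TMM, quasi-likelihood test, 1 mean for each of the 4 groups, 4 residual degrees of freedom, Benjamini-Hochberg over 14907 genes, threshold 0.05). The standard error of a log2 fold change is its size divided by the root of its F statistic. RPKM served for levels between genes and for limma 3.58.1 on log2(RPKM + 0.1) and log2(RPKM + 1), for genes of RPKM 0.5 or more in 2 libraries. Alternatives were these, DESeq2 1.42.0, library totals, scaling by 14 germ cell genes, no low-count filter, the largest entry per symbol, a replicate block, only the 4 libraries compared, and leaving out each library; they were also run on the lists of related genes, a choice made after seeing the data. The fits were tested on simulated data. Named were all members, every other TFIID subunit, at most 4 called genes per direction of each related list (SAGA and ATAC, SL1 and TFIIIB, general factors, TBP regulators, RNA polymerase II, Mediator), and the 5 genes most like Taf7l, Taf4b and Taf9b among genes of mean log2 CPM 3 or more, of which some for Taf4b are not reported here. Marker lists were those of germ, Sertoli, Leydig, peritubular and stromal, endothelial, macrophage and mast cells. Depth limits precision: the floor for a count of 0 covers counting error only, and the 95% intervals of fold changes come from the edgeR fit and include the spread between libraries.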

Additional observations from a re-analysis of the deposited data

Results flagged for a closer look

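Taf12, a histone-fold subunit of TFIID, had values of opposite sign in the dKO of the 2 populations under TMM scaling. In Thy1+ cells it was at 14.1 and 10.2 CPM in the control and 18.9 and 14.8 in the dKO libraries (log2 0.48 ± 0.26, edgeR adjusted p = 0.43). In cKit+ cells it was at 17.5 and 17.1 CPM in the control and 9.13 and 10.4 in the dKO libraries (log2 -0.83 ± 0.26, edgeR adjusted p = 0.028). Both dKO libraries lay above both controls in the first and below both in the second. The difference between the populations was not tested. With germ cell scaling both values were positive (0.87 in Thy1+ and 0.77 in cKit+ cells), and the cKit+ call was lost in 5 of 17 other settings, with adjusted p from 0.059 (DESeq2) to 0.12 (without cKit+ dKO replicate 1).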

How the results depend on the processing

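With 2 libraries a group, small differences were not detectable at this depth. Genes called in Thy1+ dKO numbered 93, and 589 with germ cell scaling, 318 with DESeq2, 563 with no low-count filter, 9 with the largest entry per symbol, 4 and 3 with limma (pseudocounts 0.1 and 1), 870 with only the 4 libraries compared, and 3 (without either Thy1+ dKO library) to 400 (without cKit+ dKO replicate 2) with a library left out; 8 and 16 remained without Thy1+ control replicate 1 and 2, and 392 without cKit+ dKO replicate 1. Members called there were 0, and 2 with only the 4 libraries compared. Genes called in cKit+ dKO numbered 4259, 12344 with germ cell scaling and 2386 (without cKit+ control replicate 1) to 3972 with a library left out. Between control populations they numbered 2939, and 1717 (without Thy1+ control replicate 1; 1821 without replicate 2) to 3575 with a library left out. The 2 members called there were 0 with germ cell scaling, the largest entry per symbol and limma (both pseudocounts), 1 with DESeq2, and 0 to 2 with a library left out. Same-numbered libraries deviated with correlations of -0.05 to 0.05 over all genes, and the main fit did not pair them. Such a correlation cannot show a shared source that touches only some genes. With the replicate block 157 genes were called in Thy1+ dKO, against 93 without it, and 2 members between control populations.

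Germ cell scaling, by its construction, raises every value, and moved the median of all genes to 0.44 in Thy1+ dKO, 1.64 in cKit+ dKO and 0.37 between control populations. Signs that reversed with it in Thy1+ dKO were Taf4b 0.15, Taf7l 0.29, Taf9b 0.036, Taf1 0.17, Taf5 0.084, Taf7 0.26, Tbp 0.14, Tbpl1 0.072, Taf11 0.29, Taf15 0.28, Taf2 0.17, Taf4a 0.39, Taf6 0.14 and Taf8 0.40. In cKit+ dKO they were Taf4b 0.70, Taf9b 0.39, Taf1 0.67, Taf5 0.97, Taf7 0.94, Taf9 1.06, Tbp 1.03, Tbpl1 1.23, Taf10 0.85, Taf11 1.36, Taf12 0.77, Taf13 1.43, Taf15 1.42, Taf2 0.41, Taf3 1.26, Taf4a 1.59, Taf6 0.91, Taf8 1.004, Taf5l 1.03, Taf1c 0.38, Gtf2h4 0.11, Gtf2e1 0.53, Ercc3 0.65, Ccnh 0.73, Btaf1 1.03, Polr2b 0.60, Polr2e 0.66, Polr2h 0.81, Polr2a 1.08, Med12l 0.47, Med23 0.52, Med26 0.55 and Med17 0.71. Between control populations they were Taf4b 0.069, Taf7l 0.0050, Taf9b 0.10, Tbp 0.15, Tbpl1 0.12, Taf2 0.32, Taf6 0.25 and Taf8 0.34. With limma, at pseudocounts 0.1 and 1, the control populations gave Tbp 0.039 and 0.037, Tbpl1 0.0053 and 0.0048, Taf2 0.21 and 0.20, Taf6 0.14 and 0.13, and Taf8 0.21 and 0.14, and Thy1+ dKO gave Taf10 -0.0020 and -0.0014 and Taf3 -0.015 and -0.013. Taf3 was at -0.017 in Thy1+ dKO with only the 4 libraries compared, and Taf4a at 0.017 in cKit+ dKO with DESeq2. For the limma, DESeq2 and 4-library reversals the cause was not tested.

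With a library left out, signs also varied for values near 0: in Thy1+ dKO Taf7l ran from -0.24 to 0.0012 (without Thy1+ control replicate 2), Taf10 from -0.19 to 0.21, Taf13 from -0.14 to 0.24, Taf3 from -0.062 to 0.071, Taf4a from -0.081 to 0.057 and Taf8 from -0.079 to 0.067. In cKit+ dKO Taf13 ran from -0.70 to 0.35 and Taf4a from -0.28 to 0.36. Between control populations Taf13 ran from -0.067 to 0.17, Taf2 from -0.17 to 0.10, Taf4a from -0.11 to 0.57, Taf6 from -0.28 to 0.10 and Taf8 from -0.083 to 0.064.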

Other observations

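One gene outside the member list carries a TAF7-like name. 4933416C03Rik, chosen after its values were seen, has the RefSeq symbol Taf7l2, and was at 6.31 and 7.75 CPM in Thy1+ control, 14.3 and 13.5 in Thy1+ dKO, 7.19 and 2.81 in cKit+ control, and 3.04 and 2.67 in cKit+ dKO. Its log2 fold change was 0.98 ± 0.39 in Thy1+ dKO (edgeR adjusted p = 0.26) and -0.84 ± 0.44 in cKit+ dKO (edgeR adjusted p = 0.17), so neither passed the test. The 7 macrophage markers summed to 868 and 999 CPM in Thy1+ control, 1210.5 and 1344 in Thy1+ dKO, 167 and 389 in cKit+ control, and 136 and 501 in cKit+ dKO, and 0 of 7 passed by edgeR in either dKO comparison (at an unadjusted p under 0.05, 0 in Thy1+ and 1 in cKit+). The 6 mast cell markers summed to 9.60 and 23.1, 15.8 and 12.4, 85.3 and 145, and 236 and 186 CPM in the same order.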
